A study of Mus musculus with 2 samples.

Results

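The genes described are the 43 WNT ligands, WNT receptors and secreted WNT antagonists of the mouse, out of 30011 gene names on the arrays. They were chosen by family membership and not by their values: 19 WNT ligands, 10 frizzled receptors, 5 co-receptors (Lrp5, Lrp6, Ror1, Ror2 and Ryk) and 9 secreted antagonists of the SFRP and DKK families. All 43 were present on the arrays, 9 of them with 2 oligonucleotides. To ask how the newborn ureter responds to loss of SHH signaling, ureters of wildtype NMRI mice were dissected at birth (P0) and cultured for 18 h on transwell membranes in DMEM/F12 medium with 10% FCS. Treated explants received 10 µM cyclopamine, a plant alkaloid inhibitor of SMO, through which SHH signals, and control explants received the solvent DMF at 1:1000. DMF is the solvent given in the labels, whereas the methods of the study give ethanol for cyclopamine. RNA of pooled ureters was compared on 2 two-colour arrays, each with a cyclopamine pool against a control pool of the same sex. Replicate 1 was female with the control in green, replicate 2 was male with the dyes swapped, so that sex, dye orientation and replicate number cannot be told apart. The name of the treated channel gives IWP-2 in the labels of both arrays (an inhibitor of WNT secretion), but the titles, treatment entries and protocol all give cyclopamine.

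WNT proteins are lipid-modified secreted ligands that bind frizzled receptors at the cell surface. In the canonical branch they also engage LRP5 or LRP6 and stabilise β-catenin, which activates target genes with TCF and LEF factors, whereas ROR and RYK receptors act in other branches that control cell shape and polarity. SFRP proteins bind WNTs outside the cell and most DKK proteins block LRP5 and LRP6. In the ureter, WNT ligands of the epithelium act on the surrounding mesenchyme, as SHH does.

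The arrays read each gene with oligonucleotides of 60 bases. The first 30 bases are shown for the genes whose readings are discussed most closely: Frzb and Wnt7b, which were higher on both arrays, and Fzd2 and Wnt1, whose pairs of oligonucleotides gave different readings. They are written 5′ to 3′ with positions of the whole oligonucleotide in mouse build mm9, taken from the array files, which give no exon or UTR. No part is singled out by capitals.
Frzb, chr2:80252582-80252641, minus strand: gtgcaccagggtgttatttaacagaggtat
Wnt7b, chr15:85366896-85366955, minus strand: tctgaagatttactggagaccccacggctc
Fzd2, brighter oligonucleotide, chr11:102467613-102467672, plus strand: tcacagtctacatgatcaaatacctcatga
Fzd2, dimmer oligonucleotide, chr11:102469045-102469104, plus strand: cgtgacattctatatcataagatattgata
Wnt1, brighter oligonucleotide, chr15:98624201-98624260, plus strand: agtggctcctcgcccccaccaatgtagtat
Wnt1, dimmer oligonucleotide, chr15:98623276-98623335, plus strand: tgctgccacgtcagctgccgcaactgcacg

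Values are processed intensities of the brightest oligonucleotide of each gene, in arbitrary units that depend on the sequence, so that intensities are compared within a gene only. The arrays were not on one scale, with a 75th percentile in the control of 3338 for replicate 1 and 628 for replicate 2. A channel counted as measured where at least 0.5 of the spots of an oligonucleotide were well above background. The treatment was read from 3 SHH targets. Gli1, a transcription factor of the pathway, had a mean log2 ratio of cyclopamine to control of -1.96 ± 0.18 (n = 2, SD), the receptor gene Ptch1 one of -1.31 ± 0.25 (n = 2, SD) and Hhip, which encodes a hedgehog-binding protein, one of -1.15 ± 1.19 (n = 2, SD). All 3 passed limma (adjusted p 1.76e-08, 0.000248 and 0.00683), and Hhip differed between the arrays (-0.31 and -1.99). Since the tissue is a mixture, fewer cells of a type and less RNA per cell cannot be told apart in any of these ratios.

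Of the 43 genes, 35 were bright enough to be tested, 32 were measured in all 4 channels and 5 in none. In none of the 35 did the difference between cyclopamine and control pass limma at an adjusted p of 0.05. Of all 25975 oligonucleotides tested, 0.77% were called lower and 0.454% higher, and no calls among 35 is near that share. The lowest adjusted p among the members was 0.382 (limma), for Frzb. At an unadjusted p of 0.05, limma gave 2 of the 35, Frzb (higher) and Wnt2b (lower), which is 5.71% of them against 9.39% of all oligonucleotides. Wnt2b entered the test through its control channels alone, which favours a lower ratio, so its p is no support for a fall. None of the 10 other limma fits called a member. Those on the deposited fold changes and on the 4 channels as separate samples called 0 of all 25975 oligonucleotides, so they could call no member. By an approximation of the filter of the study (control intensity over 100 on both arrays and at least 1.5-fold in one direction on each), 0 of the 25 members above the intensity limit passed, where 0.63% of 13661 genes were lower and 0.212% higher.

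The 95% intervals (limma) set what the arrays could see. All 35 lay between a 2-fold fall and a 2-fold rise, with the lowest bound at -0.99 (Wnt2b) and the highest at 1.00 (Frzb) on the log2 scale. A 1.5-fold fall lay outside the interval of 28 members, and a 1.5-fold rise outside that of 22. The width comes almost wholly from the spread pooled over all oligonucleotides, and little from the arrays of the gene itself. Wnt7b, with an SD of 0.05, had -0.10 to 0.80, and Lrp6, with an SD of 0.70, had -0.06 to 0.88. For members whose arrays disagreed, the interval thus understates the spread. The smallest mean log2 ratio that limma called anywhere on the arrays was 0.83 in size. Changes of the members below about that size were therefore not detectable with 2 arrays, and the missing calls do not show that levels were the same.

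**Figure D1:**
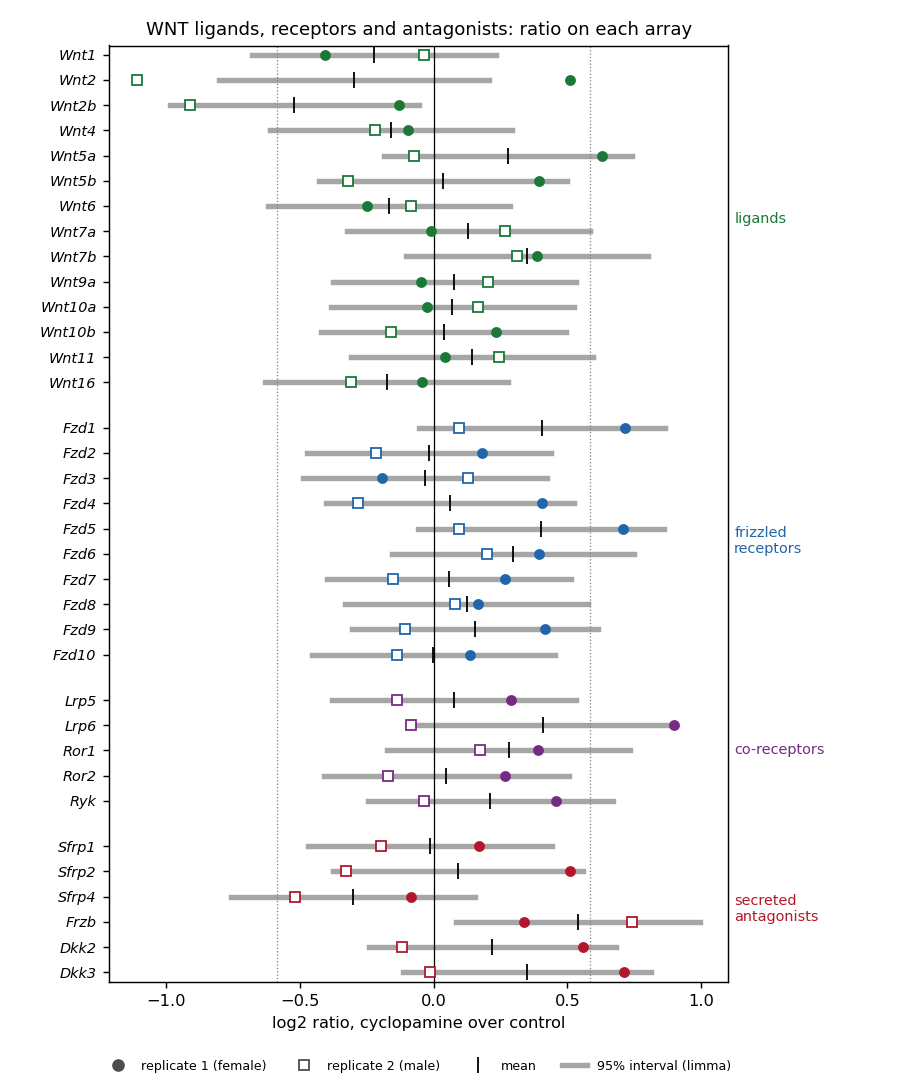
Log2 ratio of cyclopamine to control for the 35 tested members, ordered by role, with filled circles for replicate 1, open squares for replicate 2, a tick for the mean and a grey bar for the 95% interval of limma. Dotted lines mark 1.5-fold. Of the 35 intervals, those of Wnt2b and Frzb do not include 0 before adjustment, and no member lies beyond 1.5-fold on the same side on both arrays. Wnt2b was tested through its control channels alone, which favours a lower ratio.

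Among the ligands, 11 of 19 were measured in all 4 channels, and 14 were tested. Of these 14, 2 were higher on both arrays (Wnt7b and Wnt11), 5 were lower on both (Wnt1, Wnt2b, Wnt4, Wnt6 and Wnt16) and 7 went in opposite directions. Among those lower on both, Wnt2b and Wnt16 were tested through their control channels alone, which favours a lower ratio. Their mean log2 ratios had a median of 0.04, with -0.02 on replicate 1 and -0.08 on replicate 2. No ligand passed a test in either direction.

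Wnt7b, an epithelial ligand of organs such as lung and kidney, was read at intensities of 1038 (control) and 1358 (cyclopamine) on replicate 1 and 259 and 321 on replicate 2. The cyclopamine channel was the brighter one on both arrays, and the log2 ratios of 0.39 and 0.31 lay close together. Their mean was 0.35 ± 0.05 (n = 2, SD; 95% interval -0.10 to 0.80; limma adjusted p 0.664). Wnt11, a ligand of cell movement and polarity, had intensities of 446 and 459 on replicate 1 and 80.4 and 95.1 on replicate 2. Its mean log2 ratio was 0.14 ± 0.14 (n = 2, SD).

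Wnt4, which is needed for nephron formation in the kidney, had intensities of 8308 in the control and 7769 with cyclopamine on replicate 1, and of 1701 and 1459 on replicate 2. Cyclopamine was the dimmer channel on both arrays, by a mean log2 ratio of -0.16 ± 0.09 (n = 2, SD; 95% interval -0.61 to 0.29; limma adjusted p 0.865). A second oligonucleotide of Wnt4 was also lower on both arrays, its log2 ratio averaging -0.30. Wnt6 had intensities of 1041 and 875 on replicate 1 and 177 and 167 on replicate 2, and a mean log2 ratio of -0.17 ± 0.12 (n = 2, SD).

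Wnt1, the founding member of the family and known for its role in the midbrain, was read at 347 and 262 on replicate 1 and at 62.0 and 60.4 on replicate 2. The mean log2 ratio was -0.22 ± 0.26 (n = 2, SD), and nearly all of it came from replicate 1. The dimmer oligonucleotide shown above was not well above background in any channel (intensities from 1.11 to 3.34). A reading of Wnt1 thus rested on which of its oligonucleotides was used. Nothing in the arrays tells whether the brighter one reads Wnt1 RNA alone.

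Wnt5a, which mostly acts outside the β-catenin branch and binds ROR2, was read at 2752 and 4255 on replicate 1 and at 1375 and 1307 on replicate 2. It was brighter with cyclopamine on the female array and slightly dimmer on the male array (log2 ratios of 0.63 and -0.07). Wnt5b, its close relative, had intensities of 2086 and 2738 on replicate 1 and 506 and 405 on replicate 2. Here too the arrays went in opposite directions, with log2 ratios of 0.39 and -0.32. The mean log2 ratios were 0.28 ± 0.50 for Wnt5a and 0.04 ± 0.50 for Wnt5b (n = 2, SD), each smaller than its spread.

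The ligands Wnt7a, Wnt9a and Wnt10a had small ratios in opposite directions. Wnt7a, known from limb patterning, had intensities of 166 and 165 on replicate 1 and 48.8 and 58.7 on replicate 2. Wnt9a, which acts in joint formation, had 848 and 820, then 150 and 172. Wnt10a, a ligand of teeth and skin, had 1496 and 1470, then 298 and 335. In all 3 the cyclopamine channel was marginally dimmer on replicate 1 and brighter on replicate 2, with mean log2 ratios of 0.13, 0.08 and 0.07. Wnt10b, which restrains fat cell formation, was read at 51.0 and 60.0 on replicate 1 and 9.97 and 8.92 on replicate 2, with a mean log2 ratio of 0.04 ± 0.28 (n = 2, SD).

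The 3 other tested ligands were measured in all channels except cyclopamine on replicate 2. They entered the test through their control channels alone, which favours a lower ratio. A stricter filter, with all channels measured, left them out. Wnt2b, known with Wnt2 for specifying the lung, was read at 41.5 and 37.9 on replicate 1 and at 9.28 and 4.93 on replicate 2, the last not well above background. Its mean log2 ratio was -0.52 ± 0.55 (n = 2, SD; 95% interval -0.99 to -0.06; limma p 0.0287, adjusted p 0.434). Both arrays were lower with cyclopamine, but the log2 ratio was -0.13 on replicate 1 and -0.91 on replicate 2. Wnt2 had intensities of 17.6 and 25.0 on replicate 1, and of 6.84 and, not well above background, 3.17 on replicate 2. Its log2 ratios of 0.51 and -1.11 were the furthest apart of all tested members, and the limma interval (-0.80 to 0.21), which pools the spread over all oligonucleotides, is narrower than they are. Wnt16, a ligand known from cortical bone, was read at 32.7 and 31.6, then at 6.48 and 5.24, with a mean log2 ratio of -0.18 ± 0.19 (n = 2, SD). A second oligonucleotide of Wnt16 was measured on replicate 1 only, with a log2 ratio of -0.65 there.

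**Figure D2:**
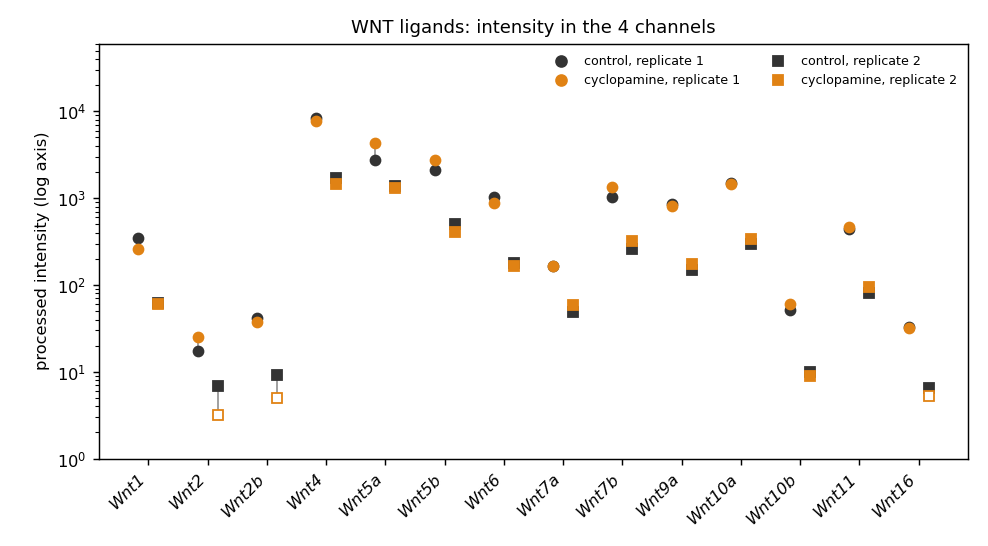
Processed intensity (log axis) of the 14 tested ligands, with circles for replicate 1, squares for replicate 2, dark for control and orange for cyclopamine, and open symbols where the channel was not well above background. Most pairs of control and cyclopamine lie close together, Wnt2 and Wnt2b on replicate 2 and Wnt5a on replicate 1 being the widest, and the open squares are the cyclopamine channels of Wnt2, Wnt2b and Wnt16 on replicate 2.

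The 5 ligands not tested were Wnt3, Wnt3a, Wnt8a, Wnt8b and Wnt9b. Wnt3, Wnt3a, Wnt8a and Wnt8b were not well above background in any channel. Wnt9b, a ligand of the duct epithelium of the developing urogenital system, was read at 7.39 and 15.5 on replicate 1 and at 3.71 and 5.13 on replicate 2, of which only the cyclopamine channel of replicate 1 was well above background. With both arrays averaged, its cyclopamine signal was 1.40-fold the lowest measurable control signal, without a test. The average includes replicate 2, where cyclopamine was not well above background, so this is no firm lower bound.

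All 10 frizzled receptors and all 5 co-receptors were measured in all 4 channels. Of the frizzled receptors, 4 were higher on both arrays (Fzd1, Fzd5, Fzd6 and Fzd8), none was lower on both and 6 went in opposite directions. Their mean log2 ratios had a median of 0.09 and ran from -0.03 (Fzd3) to 0.40 (Fzd1). No receptor passed limma, with a lowest adjusted p of 0.617.

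Fzd1, the brightest frizzled oligonucleotide, had intensities of 28436 in the control and 46628 with cyclopamine on replicate 1, and of 8621 and 9208 on replicate 2. The cyclopamine channel was brighter on both arrays, with log2 ratios of 0.71 and 0.10. The mean was 0.40 ± 0.44 (n = 2, SD; 95% interval -0.06 to 0.87; limma adjusted p 0.617). Fzd5, a receptor of the canonical branch, had a mean log2 ratio of 0.40 ± 0.43 (n = 2, SD), and its second oligonucleotide gave 0.32. Fzd6, which acts in planar cell polarity with Fzd3, had a mean log2 ratio of 0.30 ± 0.14 (n = 2, SD), and Fzd8 one of 0.12 ± 0.06 (n = 2, SD).

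The other 6 frizzled receptors (Fzd2, Fzd3, Fzd4, Fzd7, Fzd9 and Fzd10) had mean log2 ratios between -0.03 and 0.15. Fzd3 was the only frizzled gene lower on replicate 1 (-0.19, against 0.13 on replicate 2). Fzd4, which also binds the non-WNT ligand norrin, had log2 ratios of 0.40 and -0.28. Fzd7 had 0.27 and -0.15, and its second oligonucleotide had 0.42 and 0.01, so the direction on replicate 2 rested on the oligonucleotide used. The Fzd2 pair of oligonucleotides disagreed. The brighter one, at intensities from 1886 to 11177, had log2 ratios of 0.18 and -0.21, whereas the dimmer one was read at 742 and 454 on replicate 1 and at 99.3 and 80.7 on replicate 2, with log2 ratios of -0.71 and -0.30. Only the dimmer reading was lower with cyclopamine on both arrays, so no direction is given for Fzd2.

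Among the co-receptors, Ror1 alone was higher on both arrays, and the other 4 were higher on replicate 1 and lower on replicate 2. Lrp6, which passes the canonical signal together with frizzled, was read at 4764 and 8889 on replicate 1 and at 1846 and 1743 on replicate 2. This was the largest log2 ratio of a tested member on either array in the upward direction (0.90), and it was -0.08 on the other array. A second oligonucleotide of Lrp6 gave 0.87 on replicate 1 and 0.00 on replicate 2, so that the difference between the arrays was seen with both. The mean was 0.41 ± 0.70 (n = 2, SD; limma adjusted p 0.621). Ror1, a receptor tyrosine kinase for WNT5A, had a mean log2 ratio of 0.28 ± 0.15 (n = 2, SD) and its second oligonucleotide one of 0.55. The mean log2 ratios of Lrp5 (the close relative of Lrp6), Ror2 and the kinase-like receptor gene Ryk were 0.07, 0.05 and 0.21, and those of Lrp5 and Ror2 changed sign with the gene length trend removed.

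Of the 9 secreted antagonists, 6 were tested, and Frzb was the only one higher on both arrays. Frzb (also called Sfrp3), which binds WNTs outside the cell, was read at 994 in the control and 1254 with cyclopamine on replicate 1, and at 157 and 263 on replicate 2. Its log2 ratios were 0.34 and 0.74, with a mean of 0.54 ± 0.29 (n = 2, SD; 95% interval 0.08 to 1.00; limma p 0.0217, adjusted p 0.382). It had the highest mean log2 ratio of the tested members and the ratio of replicate 1 was under 1.5-fold.

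Sfrp4, of the same family of WNT-binding proteins, was the only tested antagonist lower on both arrays. It was read at 8245 and 7766 on replicate 1 and at 1882 and 1314 on replicate 2, with a mean log2 ratio of -0.30 ± 0.31 (n = 2, SD; limma adjusted p 0.714). Sfrp1, Sfrp2, Dkk2 and Dkk3 were higher on replicate 1 (log2 ratios from 0.17 to 0.71) and lower on replicate 2 (from -0.33 to -0.01). Dkk3, a divergent DKK protein and the brightest antagonist oligonucleotide, was read at 26645 and 43646 on replicate 1 and at 7444 and 7373 on replicate 2. The higher reading on the first array had no counterpart on the second.

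The antagonists Sfrp5, Dkk1 and Dkk4 were not tested. Dkk4 was not well above background in any channel. Sfrp5 was measured in the control of replicate 1 only (17.6, against 13.2 with cyclopamine). With both arrays averaged, its control signal was 1.07-fold the lowest measurable cyclopamine signal. The average includes replicate 2, where neither channel was well above background, so no fall is stated. Dkk1, an inhibitor of LRP5 and LRP6, was measured only with cyclopamine on replicate 2 (6.26, against 1.28 in the control), and on replicate 1 the control was the brighter channel (10.9 against 5.17, both not well above background). The same comparison gave 0.94 for Dkk1, so no rise is stated.

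The members as a list read differently on the arrays. Of the 35 tested, 25 were higher with cyclopamine on replicate 1 but 12 on replicate 2, and their median log2 ratio was 0.27 on replicate 1 and -0.09 on replicate 2. The median over all 19397 tested genes was 0.00 on both. In the same direction on both arrays were 14 members, 8 of them higher (22.9%, against 28.6% of all tested genes) and 6 lower (17.1%, against 28.9%). Wnt2b and Wnt16, among the 6 lower, were tested through their control channels alone. Higher on replicate 1 and lower on replicate 2 were 17 members, whereas 4 went the other way, and these shares were 21.1% and 21.3% over all tested genes. The receptors and co-receptors together made up 9 of the 17, and 15 of the 35 tested members. Neither a test nor a cause can be given for this, since each orientation has 1 array.

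The spread between arrays, and not that between spots, set the error. The spots of a member's oligonucleotide had a median SD of 0.03 on replicate 1 and 0.04 on replicate 2 on the log2 scale. The log2 ratios of the arrays differed by a median of 0.41 in the members and 0.30 in all tested genes. The marker lists of endothelium and fibrocytes, but not all marker lists, were also mostly higher on replicate 1 and lower on replicate 2. All 5 endothelial markers (Pecam1 first) were higher on replicate 1 and 4 were lower on replicate 2, with medians of 0.65 and -0.10 and summed intensities of 43290 and 68018, then 12460 and 10946. Of 6 fibrocyte markers, 5 were higher on replicate 1 and 5 lower on replicate 2, with medians of 0.58 and -0.34 and summed intensities of 280385 and 440741, then 128643 and 105242. The first marker of that list, Aldh1a2, an enzyme of retinoic acid synthesis, was the exception on replicate 1, with log2 ratios of -0.62 and -0.65, and passed the approximated filter (limma adjusted p 0.218). All markers of both lists were well above background in every channel. For the other cell types of the ureter the medians on replicates 1 and 2 were 0.15 and 0.17 for urothelium, -0.06 and -0.40 for smooth muscle, 0.03 and -0.15 for leukocytes and 0.03 and 0.01 for glia and neurons. The part of these cells in the ratios of the members was not tested.

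Markers of the layers of the ureter were read as a check of the tissue. All 8 urothelial markers (Cdh1 first) and all 7 smooth muscle markers (Acta2 first) were measured in all 4 channels. Of the smooth muscle markers 5 were lower on both arrays, with Actg2, a smooth muscle actin, called by limma (mean log2 ratio -0.90, adjusted p 0.0251). All 5 leukocyte markers (Ptprc first) and all 5 of glia and neurons (Sox10 first) were measured as well, and none was called. Of the kidney markers only Six2 was, and Umod was at background. Of the 4 skeletal muscle markers 2 were measured, and Myh3 and Myog were at background. Those measured were Acta1 (mean log2 ratio -0.86, limma adjusted p 0.0356) and Ckm (-0.53, limma adjusted p 0.393). The study used CKM protein as a marker of late smooth muscle cells of the ureter, so Ckm is not particular to skeletal muscle here.

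**Figure D3:**
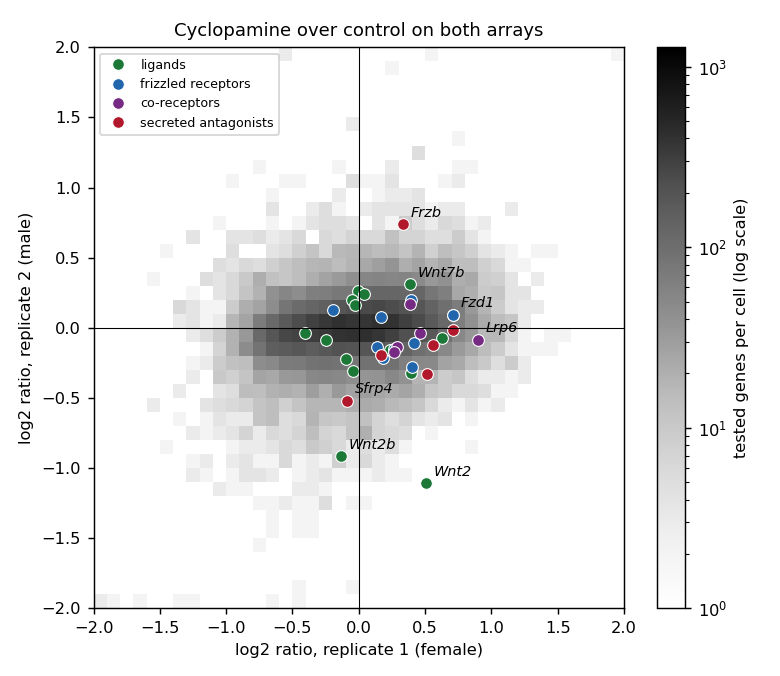
Log2 ratio of cyclopamine to control on replicate 1 against replicate 2. The grey grid counts the 19397 tested genes per cell of 0.1 by 0.1 (values beyond the frame are drawn in its edge cells), and coloured points are the 35 tested members by role. Of these, 17 lie at the lower right, higher on replicate 1 and lower on replicate 2, and 4 in the upper left.

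The rest of the pathway was read from 56 further genes, of which 52 were tested. Of these, 3 passed limma, where no member did, and this difference was not tested. Among all tested oligonucleotides 0.77% were called lower and 0.454% higher. Lgr5, a receptor for R-spondins that amplify WNT signals, was read at 949 and 1913 on replicate 1 and at 181 and 452 on replicate 2. It was higher by a mean log2 ratio of 1.17 ± 0.22 (n = 2, SD; limma adjusted p 0.00136). Ndp, which encodes norrin, the non-WNT ligand of FZD4, fell from 529 to 181 on replicate 1 and from 81.0 to 24.9 on replicate 2 (limma adjusted p 2.32e-06). Its mean log2 ratio was -1.62 ± 0.11 (n = 2, SD), while that of its receptor gene Fzd4 was 0.06 ± 0.48 (n = 2, SD). Sp5, a direct transcriptional target of β-catenin, fell from 528 to 248 and from 102 to 33.4, with a mean log2 ratio of -1.35 ± 0.37 (n = 2, SD; limma adjusted p 0.000155). Axin2, which the study used as its readout of WNT signaling, was higher on both arrays (log2 ratios of 0.36 and 0.63) without passing limma (adjusted p 0.462). The study listed Lgr5, Ndp, Sp5 and Axin2 all as lower with IWP-2, whereas with cyclopamine they went in both directions. Lgr5 and Sp5 also passed the approximated filter. Ndp missed it on the unscaled intensities, where its control was under 100 on replicate 2, and passed once both arrays were scaled to a common 75th percentile.

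By role, both genes of ligand secretion were tested and neither passed. Of the 9 R-spondin, LGR and related genes, 8 were tested and 6 were higher on both arrays, with a median of the mean log2 ratios of 0.43, though only Lgr5 passed. Of 14 other extracellular modulators 12 were tested, 4 lower on both arrays (Ndp alone called) and 3 higher. None of the 8 tested other receptors and none of the 18 intracellular genes passed, with medians of 0.28 and 0.09. Of the 4 feedback targets, 2 were lower on both arrays (Sp5 alone called) and 1, Axin2, was higher. Over all 52, 22 were higher and 14 lower on both arrays, where 28.6% and 28.9% of all tested genes were. The share higher was thus above that of all tested genes and the share lower slightly below it, which was not tested. The median was 0.11, beside 0.07 for the members.

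**Figure D4:**
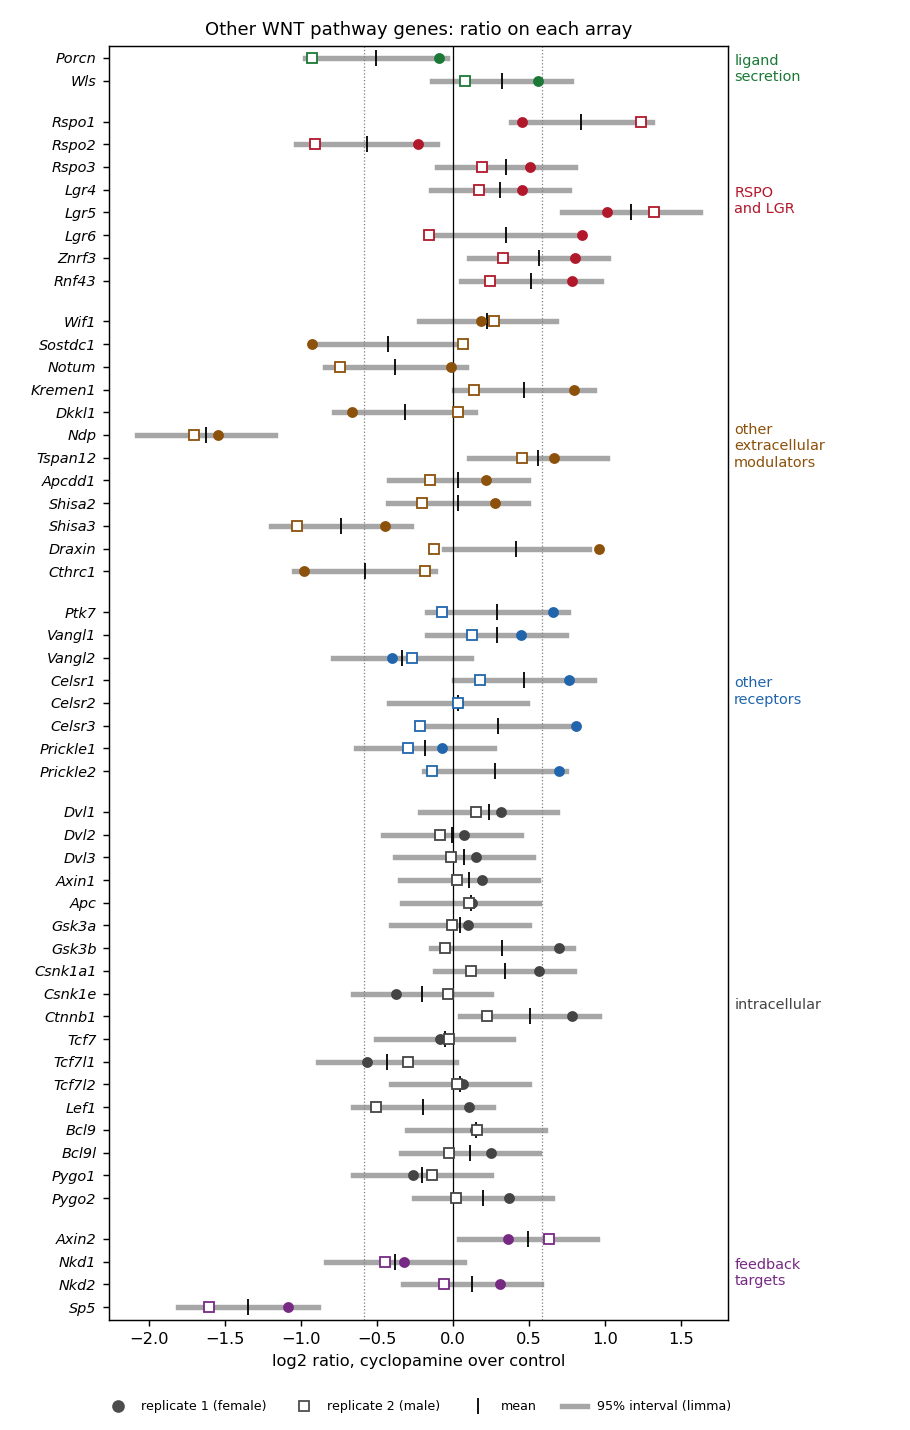
Log2 ratio of cyclopamine to control for the 52 tested genes of the rest of the WNT pathway, with filled circles for replicate 1, open squares for replicate 2, ticks for the mean and grey bars for the 95% interval of limma. Lgr5 lies above 1 on both arrays, and Ndp and Sp5 lie below -1 on both.

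A promoter window of 300 bases (RefSeq, build GRCm38.p6) was at hand for 29 of the 43 members, in 32 windows. The core of the GLI binding motif, searched as GACCACCCA on both strands, was in 0 of these 32 windows and in 83 of the 32851 windows of all genes (0.253%). No match says only that these letters are not in these windows.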

How the data were processed

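The deposited scanner files hold the processed intensity of each spot in both channels, made by the authors in Agilent Feature Extraction (version 12.2.0.7 per the file headers, 10.7.3.1 per the labels) with background subtraction, detrending and dye balancing within the array. The deposited log10 ratio gives red against green whatever the dye orientation, and was used to find the direction of the deposited series table, a score per oligonucleotide that the values show to be a signed fold change of cyclopamine over control. Control spots and outlier spots (2.89% and 3.15%) were left out, no spot was saturated, and spots were averaged on the log2 scale.

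The R package limma 3.58.1 (R 4.3.3; functions lmFit and eBayes, dye orientation as +1 or -1, no intercept) tested the 25975 oligonucleotides with at least 0.5 of their spots well above background in a group on both arrays. Adjustment was by Benjamini-Hochberg at 0.05. With 2 arrays, 1 residual degree of freedom is left, so the spread is pooled over all oligonucleotides, and precision is limited by the number of arrays. The pools of the arrays were independent and of different sex, so the spread between the arrays also holds sex and dye orientation. Only the limma step was run on simulated ratios, whose spread was drawn from the fitted prior that limma itself assumes. That check does not cover the averaging of spots, the filter or the other normalisations.

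The filter used here approximates that of the study, whose tabulated intensities were on a scale shared by both arrays, unlike the deposited processed signals. Each gene is given by its brightest oligonucleotide. A comparison with the lowest measurable signal averages both arrays after Aquantile normalisation. The other side is the dimmest signal that is well above background, or the gene's own signal where that is brighter. It is open to dye bias. Named with all channels were tested ligands, called members, the brightest receptor and antagonist, and, chosen after their values were seen, others such as Frzb, Sfrp4 and Lrp6. Pathway and marker genes were named where called or first in their list, and otherwise after their values were seen. The members and lists were chosen with earlier results of these data known.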

Additional observations from a re-analysis of the deposited data

How the results depend on the processing

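The limits are the number of arrays (2) and the dim signal of replicate 2. The count of members called by limma was 0 in each direction with all 10 other fits, which changed the background correction, loess, the filter on dim oligonucleotides, the prior, gene length, the averaging over a gene, the series table and the use of channels as separate samples. Their lowest adjusted p (limma) ranged from 0.183 to 0.991. The fits on the series table and on separate channels called 0 oligonucleotides of any gene, so their counts for the members carry no information. No member passed the approximated filter with any other setting on both arrays, a common 75th percentile included. With 1 array left out, 0 members were lower, and the count of members higher ranged from 1 (without replicate 1) to 4 (without replicate 2). The median log2 ratio of the members ranged from -0.09 to 0.27 when an array was left out. A count of members in the same direction needs both arrays.

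Of 347 member values under other fits, 6 changed sign and none changed its call. Many of the 347 could not change sign. The settings of the filter, the prior and the separate channels leave the mean log2 ratio as it is. So does averaging over a gene with 1 tested oligonucleotide. A value of 0, such as that of Wnt16 with the series table, was counted as unchanged. With the gene length trend removed, the mean log2 ratio was -0.068 for Wnt5b, 0.14 for Fzd2, 0.17 for Fzd10, -0.028 for Lrp5 and -0.049 for Ror2, and with normexp at an offset of 50 it was 0.0045 for Fzd2. The limma test on ratios within arrays is itself the paired analysis. The unpaired fit of the 4 channels (no replicate block) called no oligonucleotide of any gene, so it says nothing about the members in particular.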
